A study of Mus musculus with 24 samples.

Results

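Exc-Cdh12 is a cluster of excitatory neurons of the mouse ventral hippocampus that the authors named after Cdh12, a type II cadherin, with no hippocampal field in its name. Its members are the nuclei under that label in 2 tables of counts, 490 of 30880 nuclei in single-nucleus RNA sequencing (snRNA-seq) and 551 of 27206 nuclei in single-nucleus chromatin accessibility sequencing (snATAC-seq). The animals were adult male C57BL/6J (B6) and DBA/2J (D2) mice of 10 to 16 weeks, untreated inbred strains with no allele or agent added, and each library pooled tissue of about 2 animals. There were 2 libraries per strain in each assay, numbered 2 and 3 in the tables. The snRNA-seq nuclei had been sorted to enrich for neurons and the snATAC-seq nuclei had not, so shares of nuclei are read within an assay only.

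Cadherins are calcium-dependent adhesion molecules that sit in the membranes of neighbouring cells, and each type of neuron uses its own combination of them, which bears on which cells adhere and form synapses. Catenins tie their inner ends to the actin skeleton. Excitatory neurons of the hippocampus and the adjoining cortex release glutamate, and they are usually told apart by transcription factors and other markers of the field or layer in which they lie.

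The snRNA-seq libraries held 76 and 118 Exc-Cdh12 nuclei in B6 and 187 and 109 in D2, with 526014 and 1091581 counts in B6 and 1313505 and 777757 counts in D2. The snATAC-seq libraries held 85 and 128 nuclei in B6 and 164 and 174 in D2, with 840366 to 2544451 counts. These are small samples: the cluster was 16th of 17 types by nuclei in snRNA-seq. Of all nuclei in a library, Exc-Cdh12 made up 0.873% and 1.502% in B6 and 2.34% and 1.73% in D2 in snRNA-seq, so the strains did not overlap and D2 was higher. In snATAC-seq the shares were 1.14% and 2.66% in B6 and 2.11% and 2.43% in D2, and the strains overlapped. An exact permutation test, 2-sided, gave p = 0.333 for snRNA-seq, the smallest that 2 libraries against 2 allow, and p = 1.0 for snATAC-seq. B6 library 2 was the smallest in nuclei and in counts in both assays.

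Levels are CPM, each library scaled to the same total over the 21654 symbols counted in both strains, and they are not corrected for gene length, so they are compared for 1 gene between types or libraries and not between genes. The nuclei were clustered on these same transcripts, so the levels against the other 7 excitatory types are a description and were not tested. Cdh12 (chromosome 15, 20449265 to 21589533, mm10) stood at 1554 and 1409 CPM in B6 and at 1370 and 1380 CPM in D2, which fits the label. The next type was Exc-DG, of the dentate gyrus, at 567 CPM, and Exc-ENT was lowest at 64.5 CPM. The log2 ratio of Cdh12 to the mean of the other excitatory types was 2.08.

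Of 7230 symbols at 20 CPM or more, 178 lay above every other excitatory type in each of the 4 libraries (2.46%), and 81 of 7244 lay below every other type in each (1.12%). With levels scaled by the trimmed mean of M values (TMM), these counts were 114 and 162. Among the 178 symbols, the next highest type was Exc-Gpc6, another cluster with no field in its name, for 57 and Exc-ENT for 40. The whole profile was also closest to Exc-Gpc6, with a Pearson correlation of 0.938 across 13649 symbols, followed by 0.929 for Exc-CA1-Camk2d and 0.915 for Exc-CA1-Fras1, and it was farthest from Exc-DG at 0.856. The points of these correlations are genes and not replicates, and the types share libraries.

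The 15 leading transcripts, ranked by the log2 ratio to the mean of the other excitatory types, were 9330185C12Rik, Dock2, Insyn2b, Gm6602, Gm49457, Cd44, Plch1, Sox2ot, Gm38505, Rxfp1, Mei1, Lhfpl3, Ptger3, Gm20063 and Otof. The long noncoding RNA 9330185C12Rik was at 134, 308, 263 and 245 CPM in B6 libraries 2 and 3 and D2 libraries 2 and 3, against 12.2 CPM in the next type, Exc-CA1-Fras1. Rxfp1, the receptor of relaxin, was at 491, 379, 418 and 564 CPM, against 200.0 CPM in Exc-Gpc6 and 1.97 CPM in Exc-DG. Both were high in all 4 libraries, although 9330185C12Rik differed more between the B6 libraries than between the strains. Cd44, the cell surface receptor of hyaluronan, was at 32.6, 52.6, 47.4 and 50.7 CPM and no other excitatory type exceeded 9.25 CPM. Ptger3, a prostaglandin E2 receptor, ranged from 23.0 to 46.6 CPM, and its next type was Exc-ENT at 12.7 CPM. Otof, which encodes otoferlin, a calcium sensor of vesicle fusion, was at 123, 60.9, 67.1 and 84.0 CPM, with Exc-DG next at 23.7 CPM.

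Some of these transcripts were far higher in glial types than in the 8 excitatory types. Dock2, an activator of Rac in immune cells, averaged 121 CPM in Exc-Cdh12 and 719 CPM in microglia, and Insyn2b averaged 52.7 and 642 CPM. Sox2ot, Gm38505 and Lhfpl3 averaged 177, 121 and 461 CPM in Exc-Cdh12 and 2580, 2352 and 5650 CPM in oligodendrocyte precursors. The summed level of all 3 markers of oligodendrocyte precursors was 6.67 to 17.5 CPM over the Exc-Cdh12 libraries and 2252 CPM in the precursors. The other excitatory types had 4.20 to 13.3 CPM, with Exc-ENT alone above the Exc-Cdh12 mean of 13.1 CPM. Pdgfra at 2.41 CPM and Vcan at 2.29 CPM were near 0. Even so, 2 of the 3 markers had their highest excitatory mean in Exc-Cdh12, and 1 lay above every other excitatory type in each library. For the 4 microglial markers the sum was 199 to 220 CPM, within the 168 to 318 CPM of the other excitatory types, and 4796 CPM in microglia, with Csf1r and C1qa under 5 CPM in Exc-Cdh12. For the 5 astrocyte markers it was 188 to 315 CPM, against 9624 CPM in astrocytes. Aqp4, the astrocytic water channel, was at 1.92, 25.9, 20.5 and 22.7 CPM, above the other excitatory types (2.13 to 5.39 CPM) in all but B6 library 2. The part of glial RNA in the leading transcripts was not tested.

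**Figure D1:**
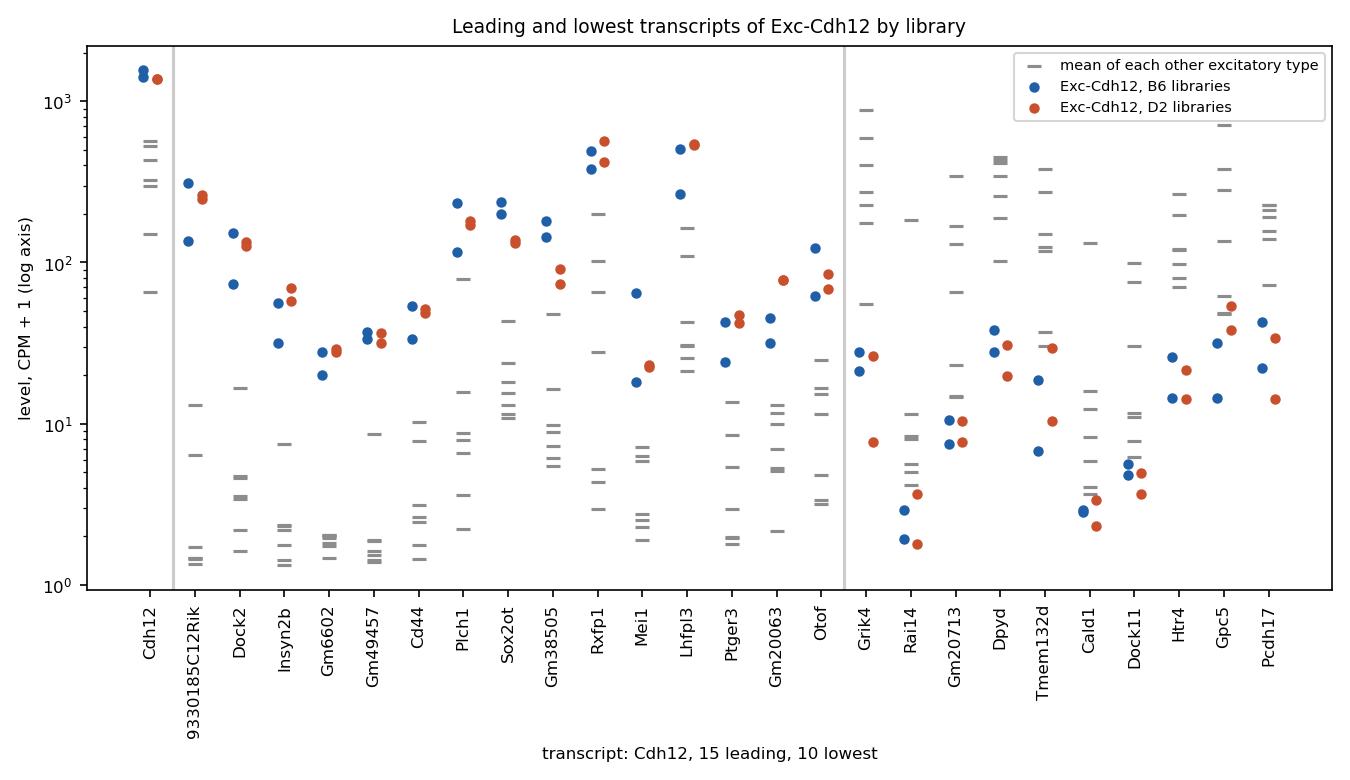
Levels of Cdh12, the 15 leading and the 10 lowest transcripts in Exc-Cdh12. The vertical axis is CPM + 1 on a log axis, each point is 1 Exc-Cdh12 library (blue B6, orange D2) and each grey dash is the mean of 1 of the 7 other excitatory types. The leading transcripts lie above all dashes. The lowest lie below them, except Gpc5 in D2 library 2 (52.9 CPM), above the means of Exc-DG (47.2 CPM) and Exc-Gpc6 (47.9 CPM). B6 libraries are often wider apart than D2 libraries.

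At the other end, Grik4, a high-affinity kainate receptor subunit that marks CA3, was at 26.8, 20.3, 25.3 and 6.67 CPM, while no other excitatory type averaged under 54.4 CPM and CA3 neurons reached 880 CPM. Its log2 ratio was -4.17. Rai14, an actin-binding protein, averaged 1.57 CPM against 184 CPM in Exc-ENT, on 5 counts over the 4 Exc-Cdh12 libraries. Htr4, a serotonin receptor coupled to cyclic AMP, averaged 18.05 CPM against 69.1 to 266 CPM in the other types. Dpyd, Tmem132d, Gpc5, Pcdh17, Cald1, Dock11 and Gm20713 made up the rest of the 10 lowest.

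The lists of region markers did not settle on 1 field or layer. Slc17a7, the main vesicular glutamate transporter of cortex, was at 180, 191, 244 and 215 CPM, which is present but ranked 8th of the 8 excitatory types. Slc17a6, its counterpart in thalamus and other subcortical neurons, was at 30.8 CPM on average, below 60.7 CPM in Exc-Gpc6. Some defining markers of several fields were at or near 0. Prox1 of the dentate gyrus averaged 3.33 CPM (279 CPM in Exc-DG). The CA2 marker Amigo2 and the CA3 marker Iyd were at 0 in all 4 libraries. Fibcd1 of CA1 averaged 4.22 CPM (66.9 CPM in Exc-CA1-Galntl6). Galntl6 itself, the gene that names the largest CA1 type, averaged 179 CPM against 4124 CPM there. Markers of layer 6b (Ccn2, Cplx3, Nxph4 and Moxd1), of the claustrum (Car3 and Oprk1) and of deep corticothalamic cells (Foxp2 at 1.90 CPM, Syt6 at 0) were also near 0. Other members of these lists were present: under 5 CPM were 1 of 7 CA1, 1 of 6 CA3, 2 of 5 claustral and 3 of 5 corticothalamic markers. In B6 and D2, Mpped1 of CA1 averaged 164 and 179 CPM, Man1a of CA1 151 and 161 CPM, and Spock1 of CA3 166 and 125 CPM. Synpr of the claustrum averaged 101 and 141 CPM, and Hs3st4 of corticothalamic cells 69.1 and 119 CPM.

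Markers that were present came from several lists. Otof and Cux2, which mark upper cortical layers, averaged 83.7 and 190 CPM, and Cux2 was higher only in Exc-Gpc6 (414 CPM), while Rorb of layer 4 averaged 2.58 CPM. Cux2 was at 86.2 and 173 CPM in B6 and 288 and 212 CPM in D2. Tshz2, a marker of near-projecting neurons of layer 5, averaged 1928 CPM, second to Exc-Gpc6 (2773 CPM), but Vwc2l of the same list averaged 15.1 CPM against 711 CPM there. The subicular markers Fn1 and Teddm3 averaged 109 and 13.4 CPM, each second to Exc-CA1-Fras1 at 168 and 20.5 CPM, while Dlk1 of the same list averaged 2.25 CPM. Rora, an orphan nuclear receptor used here as a thalamic marker, was at 1596, 1471, 1317 and 1122 CPM, above every other excitatory type in each library (Exc-ENT was next at 616 CPM), but Tcf7l2, the defining thalamic factor, averaged 1.24 CPM. Of the 4 thalamic markers counted, 2 lay above every other excitatory type in each library and 2 were under 5 CPM. Their sum was highest in Exc-Cdh12, at 1388 CPM against 618 CPM in Exc-ENT, and Rora made up 1376 CPM of it. Gad1 and Gad2, which make GABA, averaged 3.24 and 4.47 CPM, and 5 of 9 interneuron markers were under 5 CPM. Of the same list, 3 had their highest excitatory mean in Exc-Cdh12, and Lamp5 lay above every other excitatory type in each library. Lamp5 averaged 28.2 CPM against 14.2 CPM in Exc-CA1-Fras1, and Sst averaged 24.5 CPM in B6 and 11.9 CPM in D2. Inhibitory types were not used for comparison. Markers of upper layers, near-projecting cells, subiculum, CA1, CA3 and thalamus were thus present together. For near-projecting cells Vwc2l was at 15.1 CPM and 1 of 5 markers was under 5 CPM, and each other list had a defining member near 0. No field name is given.

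**Figure D2:**
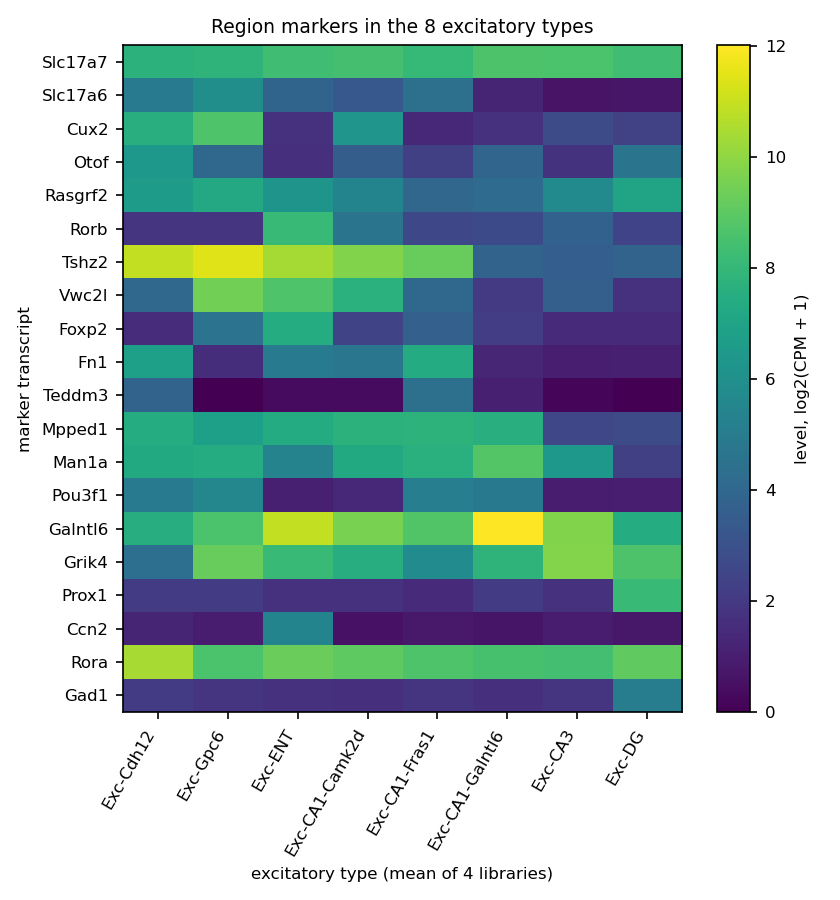
Mean level of 20 region markers, as log2(CPM + 1), in the 8 excitatory types, each the mean of 4 libraries. Exc-Cdh12, in the first column, shares Cux2 and Tshz2 with Exc-Gpc6 and Fn1 and Teddm3 with Exc-CA1-Fras1, and holds the lowest Grik4 and the highest Otof and Rora.

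Cdh12 was not the only cadherin gene that was high. Of 22 cadherin and catenin genes counted in both strains, 5 (Cdh7, Cdh10, Cdh12, Cdh20 and Ctnna2) lay above every other excitatory type in each library and 1 (Cdh11) below, against 2.46% and 1.12% of all symbols, and Cdh12 itself names the cluster. The median log2 ratio of the list was 0.14 against -0.0038 over the 8807 symbols at 20 CPM or more in any excitatory type. Cdh20 was at 682, 631, 530 and 533 CPM (458 CPM in Exc-Gpc6), and Cdh10 was at 531, 638, 550 and 548 CPM (326 CPM in Exc-Gpc6). Ctnna2, the neuronal alpha-catenin, averaged 2118 CPM against at most 1151 CPM elsewhere, and Cdh11 averaged 122 CPM against 680.6 CPM in Exc-ENT. Over the 32 columns of the excitatory types, the transcripts whose levels were most like those of Cdh12 were Gm49685 (Pearson correlation 0.957), Kcng3 (0.902), Notch2 (0.896), Alcam (0.880) and Sncaip (0.874), out of 7229 symbols compared. The 32 columns share libraries and are no independent samples.

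Among glutamate receptor genes, Gria4 was at 958, 1319, 1350 and 1235 CPM, above every other excitatory type in each library, while Gria1 averaged 401 CPM, 7th of the 8 types, against 2788 CPM in Exc-CA1-Galntl6. Grik1 averaged 162 CPM, above the others in 3 of the 4 libraries. Of 32 axon guidance genes, Robo3 alone lay above the other types in all 4 libraries, at 72.8, 47.1, 58.4 and 77.3 CPM against 34.4 CPM in Exc-CA1-Fras1, and Ntng1 (netrin-G1) and Unc5d (a netrin receptor) had the highest means, 2064 and 1451 CPM. The receptor Dcc averaged 189 CPM, while Exc-CA1-Camk2d reached 2474 CPM. Of 30 receptor genes for neuromodulators, Htr1b lay above the other types in each library at 17.2 CPM, and Htr4, Chrna7 and Adrb1 lay below. Of all symbols at 20 CPM or more, 2.46% lay above and 1.12% below, and these shares stand beside each list here. The level of Htr1b is under that threshold. Chrm3, a muscarinic acetylcholine receptor, averaged 1188 CPM and was above the others in 3 libraries (Exc-ENT averaged 749 CPM). Of 25 transcription factor genes none was above the others in all 4 libraries; Zbtb20, which is strong in hippocampal pyramidal and granule neurons, averaged 106 CPM against 3171 CPM in CA3 neurons. None of 24 potassium channel genes or 17 neuropeptide genes separated in all 4 libraries, and Kcnb2 at 1681 CPM and Cck at 157 CPM were each second to Exc-Gpc6.

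In the snATAC-seq counts, 2608 of 44311 peaks at 5 CPM or more lay above every other excitatory type in each library (5.89%), within a range of 1205 to 9670 over the 8 types. The label in this assay was transferred from the transcripts through accessibility summed over genes, so these values describe the cluster and were not tested. The profile was again closest to Exc-Gpc6 (Pearson correlation 0.880 across 93776 peaks) and then Exc-ENT (0.808), and farthest from CA3 neurons (0.593). The 5 leading peaks are shown by the 200 bases at their centres, on the plus strand of GRCm38 (the build of the peak coordinates), because they mark the regions most open in Exc-Cdh12 relative to its neighbours. Capitals mark the letters CAGATG or their reverse complement, a form of the E-box bound by NeuroD factors.
Intergenic, 30954 bp from Htr1a, chr13:105412056-105412255: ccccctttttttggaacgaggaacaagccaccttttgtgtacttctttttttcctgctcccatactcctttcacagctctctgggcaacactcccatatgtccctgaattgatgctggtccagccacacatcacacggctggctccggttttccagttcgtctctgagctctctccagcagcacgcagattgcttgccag
Intron of Fshr, chr17:89079726-89079925: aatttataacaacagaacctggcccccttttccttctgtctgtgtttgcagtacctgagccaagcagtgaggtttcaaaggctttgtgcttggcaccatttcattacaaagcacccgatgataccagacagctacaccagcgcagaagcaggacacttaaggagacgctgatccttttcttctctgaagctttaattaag
Intron of Sntg2, chr12:30354476-30354675: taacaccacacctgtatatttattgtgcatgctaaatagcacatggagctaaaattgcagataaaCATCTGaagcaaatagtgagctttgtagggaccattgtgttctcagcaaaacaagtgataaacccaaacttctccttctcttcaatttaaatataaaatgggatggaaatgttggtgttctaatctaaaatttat
Intergenic, 164419 bp from Cxcr4, chr1:128756928-128757127: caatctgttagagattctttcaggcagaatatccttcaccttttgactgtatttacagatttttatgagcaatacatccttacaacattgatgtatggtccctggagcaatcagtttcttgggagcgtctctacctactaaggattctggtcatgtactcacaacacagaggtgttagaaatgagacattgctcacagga
Intergenic, 327236 bp from Vrk2, chr11:26921406-26921605: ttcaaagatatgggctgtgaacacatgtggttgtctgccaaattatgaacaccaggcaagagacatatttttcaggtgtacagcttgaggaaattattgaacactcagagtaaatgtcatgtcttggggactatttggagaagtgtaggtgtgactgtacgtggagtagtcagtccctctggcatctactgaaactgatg

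The peak near Htr1a, the gene of a serotonin receptor (105411626 to 105412685 on chromosome 13), was at 38.1 and 27.3 CPM in B6 and 21.1 and 34.2 CPM in D2, against 4.28 CPM in Exc-Gpc6, the next type. The intronic peak of Sntg2, which encodes a syntrophin, was at 10.7 and 13.2 CPM in B6 and 15.9 and 24.4 CPM in D2, against 2.59 CPM in Exc-Gpc6. None of the 5 passed the test between strains, with adjusted p from 0.409 to 0.989 (edgeR). Htr1a itself was at 13.4, 1.85, 3.95 and 4.001 CPM, so its mean of 5.80 CPM (Exc-DG had 5.72 CPM) rested on B6 library 2, and Sntg2 was among the 178 transcripts above every other type. The letters CAGATG, on either strand, occurred in 18.6% of the 2608 windows and in 21.7% of all 93749 windows of this length. The letters TAGGTCA, to which RORA binds as a monomer, occurred in 1.15% and 1.19%, those of AP-1 (TGANTCA) in 9.74% and 9.25%, and the MEF2 motif in 1.76% and 2.93%. A match of letters is a description and no binding site.

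**Figure D3:**
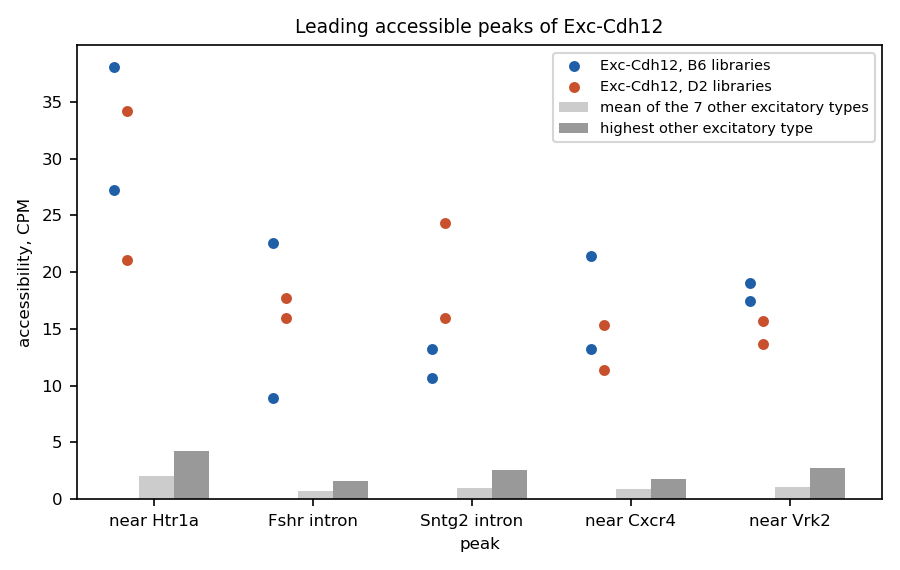
Accessibility of the 5 leading peaks, in CPM, named by their intron or nearest coding gene. Points are the 4 Exc-Cdh12 libraries (blue B6, orange D2), the light bar is the mean of the 7 other excitatory types and the dark bar the highest of them; every point lies above both bars, and the strains overlap at 3 of the 5 peaks.

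Accessibility summed over genes was set beside these transcripts as a description. Of the 14 leading transcripts with a peak within 2 kb of the gene, 7 had the highest summed accessibility of the 8 types, and of the 10 lowest transcripts 6 had the lowest. The share over all genes was not taken. The label was transferred through such sums, so likeness to the transcripts is partly built in. Gm6602, among the leading transcripts, had the lowest of the 8 types, 1.09 CPM over 7 peaks. For Otof the sum was 69.5 CPM over 17 peaks, against 56.7 CPM in Exc-Gpc6, and for Grik4 it was 175 CPM over 91 peaks, against 599 CPM in Exc-Gpc6. The 137 peaks of Cdh12 summed to 181 CPM, 4th of the 8 types as for Cd44, Plch1 and Lhfpl3, against a mean of 170 CPM and 241 CPM in CA3 neurons. At the start that RefSeq gives, which lies inside the gene as GENCODE draws it (chr15:21111202-21111501) the accessibility was 14.9 CPM, against a mean of 14.1 CPM in the other types.

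The next question was whether Exc-Cdh12 differs between the strains. With edgeR's quasi-likelihood test of 9940 transcripts, 322 differed at an adjusted p under 0.05, which is 3.24% of those tested: 100 were higher in D2 (1.01%) and 222 were lower (2.23%). Of the 322, 116 were also called by DESeq2. The libraries of the strains did not overlap for 46.5% of all transcripts tested (28.3% with D2 higher and 18.2% with D2 lower), so separation alone is common here. Of the symbols with counts in D2 nuclei of Exc-Cdh12 alone, 3760 had 0 counts in B6 in every column used. Of those with counts in B6 nuclei alone, 168 had 0 counts in D2 in every column used. The authors name a GENCODE annotation and a D2 reference with substituted bases, and no separate gene lists. Whether the strains were counted with the same gene list, and its part in the calls, was not tested. Among called transcripts with an annotation, 58.4% of those lower in D2 and 25.3% of those higher shared a strand with another gene, against 27.0% of all tested. Without such genes, 131 of 7126 transcripts were called, 50 higher and 81 lower in D2.

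The 10 named transcripts higher in D2 were Gm20324, Rnf121, Atp5o, Dnajc5b, Mlycd, Anxa4, Sav1, Sfi1, Pisd and Cfap54, and all 10 were also called by DESeq2. Rnf121, a ubiquitin ligase of the endoplasmic reticulum, was at 44.1 and 36.9 CPM in B6 against 1049 and 1148 CPM in D2 (log2 fold change 4.71 ± 0.19, SE, adjusted p = 8.72e-09), and no annotated gene shares its strand. Mlycd, malonyl-CoA decarboxylase, was at 11.5 and 8.31 CPM in B6 and 73.4 and 65.3 CPM in D2 (2.80 ± 0.31, adjusted p = 0.000205). Anxa4, which encodes a calcium-dependent membrane-binding annexin, was at 3.83 and 12.9 CPM in B6 and 75.0 and 68.0 CPM in D2 (2.77 ± 0.35, adjusted p = 0.000555). Sav1, the scaffold of Hippo signalling, was at 17.2 and 11.1 CPM in B6 and 89.2 and 101 CPM in D2 (2.75 ± 0.28, adjusted p = 9.34e-05). In each of these 4, both D2 libraries were several times above both B6 libraries. The same differences stood in the other excitatory types summed, with log2 fold changes of 4.11 for Rnf121, 2.86 for Mlycd, 1.60 for Anxa4 and 2.33 for Sav1, from the same libraries.

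Of the 10 named transcripts lower in D2, 9 shared a strand with another gene. Schip1, a partner of the ankyrin and spectrin skeleton at axon initial segments, was at 3411 and 3085 CPM in B6 against 75.8 and 56.0 CPM in D2 (log2 fold change -5.67 ± 0.19, adjusted p = 1.48e-09), and it overlaps the read-through gene Iqschfp. Cox16, an assembly factor of cytochrome c oxidase, was at 215 and 199 CPM in B6 and 5.53 and 5.33 CPM in D2 (-5.28 ± 0.27, adjusted p = 5.72e-08). Pram1, Rnasek and Cpne1 had 122, 72 and 73 counts in B6 and 0 in D2, so they were at least 51.1-fold, 30.2-fold and 30.6-fold lower in D2 against a floor of 3 counts over its 2 libraries. The mitochondrial transcripts mt-Co2, mt-Co3 and mt-Atp6 fell from 282 to 461 CPM in B6 to at most 7.89 CPM in D2. The other excitatory types summed were lower in D2 too, with log2 fold changes of -4.45 for Schip1 and -4.83 for Cox16. They were -8.18, -7.60 and -7.31 for Pram1, Rnasek and Cpne1, and -9.46, -7.55 and -6.12 for mt-Co2, mt-Co3 and mt-Atp6. Mitochondrial symbols of any name took 0.203% and 0.248% of the counts in B6 and 0.554% and 0.378% in D2, but 0.103% and 0.0723% in D2 when only symbols shared by the strains were summed. A strain difference and a difference in counting cannot be told apart for these genes.

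**Figure D4:**
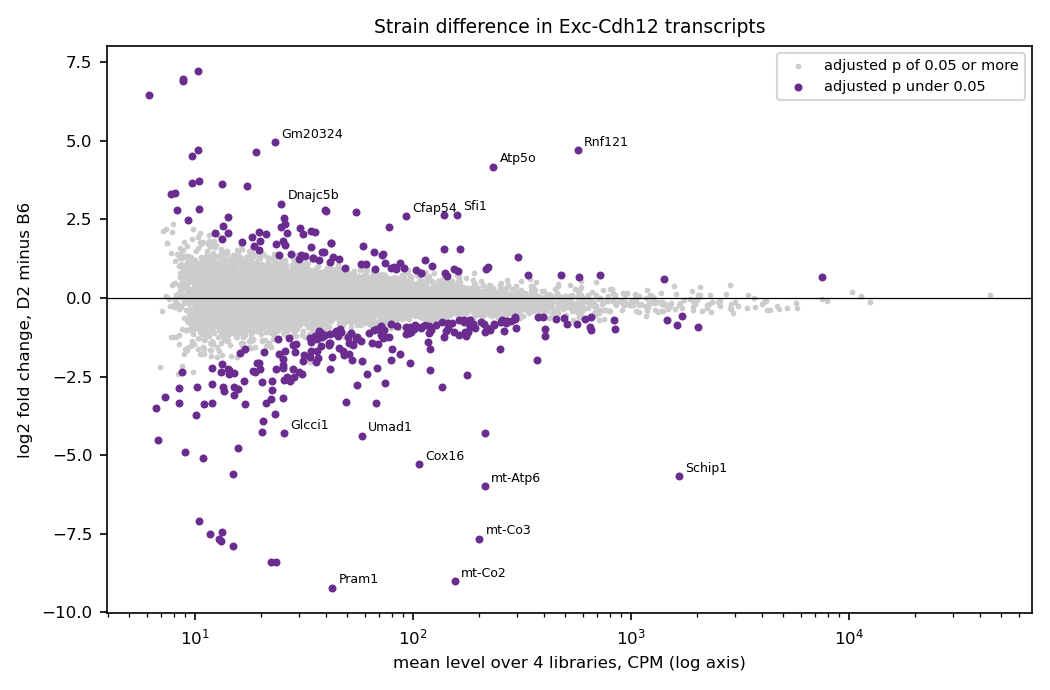
Strain difference in Exc-Cdh12 for the 9940 transcripts tested. The horizontal axis is the mean level over 4 libraries in CPM (log axis), the vertical axis the log2 fold change of D2 minus B6; purple points passed an adjusted p of 0.05 (100 above 0 and 222 below) and the named transcripts far from the rest are labelled.

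Cdh12 had a log2 fold change of -0.18 ± 0.13 (adjusted p = 0.551). Of the 15 leading transcripts 2 were lower in D2 and none higher, where 3.24% of all transcripts were called: Sox2ot fell from 238 and 199 CPM to 132 and 137 CPM (adjusted p = 0.0248), and Gm38505, which lies on the opposite strand within the same locus, from 180 and 142 CPM to 89.98 and 72.0 CPM (adjusted p = 0.0106). DESeq2 called neither (adjusted p = 0.225 and 0.0877), and Sox2ot shares a strand with other genes, Sox2 among them. Of 17 cadherin and catenin genes tested, 2 were lower in D2 and none higher. Over all transcripts tested 2.23% were lower and 1.01% higher, and the same shares apply to the lists that follow. Ctnnd1, p120-catenin, was at 74.7 and 62.8 CPM in B6 and 15.8 and 13.3 CPM in D2 (-2.25 ± 0.28, adjusted p = 0.000465), and it shares a strand with Gm28635, as do Cdh18, Kcnk2, Foxp1 and Lmo4 below with other genes. Cdh18 was at 201 and 162 CPM in B6 and 122 and 94.7 CPM in D2 (-0.79 ± 0.19, adjusted p = 0.0415). In the other excitatory types summed, the log2 fold changes were -2.26 for Ctnnd1 and -0.21 for Cdh18. The median log2 fold change of the cadherin list was -0.34, against 0.0062 over all 9940 transcripts.

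Axon guidance genes had 2 of 29 lower in D2 (2.23% of all transcripts were) and none higher, with a median of -0.38. Robo1, a receptor of Slit ligands, was at 774 and 696 CPM in B6 and 509 and 469 CPM in D2 (-0.66 ± 0.14, adjusted p = 0.0221), and Dcc, a receptor of netrin-1, was at 270 and 207 CPM in B6 and 155 and 123 CPM in D2 (-0.82 ± 0.19, adjusted p = 0.0316). Of 24 potassium channel genes, Kcnk2, the mechanosensitive leak channel TREK-1, was higher in D2, at 113 and 95.1 CPM in B6 and 197 and 213 CPM in D2 (0.92 ± 0.18, adjusted p = 0.00995), and Kcnc2 was lower (-1.29 ± 0.32, adjusted p = 0.0454). Of 16 neuromodulator receptor genes tested, the serotonin receptor Htr1f was higher (1.09 ± 0.24, adjusted p = 0.0259) and the thyrotropin-releasing hormone receptor Trhr lower (-2.35 ± 0.58, adjusted p = 0.0452). Of 19 transcription factor genes, Lmo4 was at 123 and 157 CPM in B6 and 308 and 293 CPM in D2 (1.00 ± 0.17, adjusted p = 0.0055), and Foxp1 was at 284 and 292 CPM in B6 and 149 and 148 CPM in D2 (-1.03 ± 0.16, adjusted p = 0.00238). None of 16 glutamate receptor or 7 neuropeptide genes passed the test. With DESeq2, Robo1, Ctnnd1, Foxp1 and Lmo4 passed as well (adjusted p from 0.00248 to 0.0432), while Cdh18, Dcc, Kcnk2, Kcnc2, Htr1f and Trhr did not (adjusted p from 0.11 to 0.975). In the other excitatory types summed, the log2 fold changes were -0.78 for Foxp1, 0.59 for Lmo4, -0.19 for Robo1 and -0.20 for Dcc. They were -0.52 for Kcnc2, -0.75 for Trhr, -0.12 for Kcnk2 and 0.09 for Htr1f. Of all these genes, Htr1f and Kcnk2 alone passed the interaction test described below.

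Of 52 markers of cell types and fields tested, 3 were called, against 3.24% of all transcripts: Dock10 of the dentate list (-1.29 ± 0.31, adjusted p = 0.0387), Trhr of the near-projecting list and Adarb2 of the interneuron list (-1.43 ± 0.33, adjusted p = 0.0322), all lower in D2. Dock10 and Adarb2 are also strong in dentate granule neurons, at 762 and 1056 CPM, and DESeq2 called neither. In the other excitatory types summed, the log2 fold changes of Dock10 and Adarb2 were -0.43 and -0.60. Their levels in Exc-Cdh12 were 140 and 67.4 CPM against 37.1 and 48.0 CPM for Dock10, and 36.4 and 80.3 CPM against 24.5 and 25.3 CPM for Adarb2, with B6 before D2. The other 5 dentate markers summed to 72.8 and 55.4 CPM in B6 and 52.1 and 77.3 CPM in D2, so for them the strains overlapped.

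To ask whether the strain difference in Exc-Cdh12 was unlike that in the other excitatory types summed, the interaction of strain and type was tested with the library as a block. Of 18666 transcripts, 86 passed an adjusted p of 0.05 (0.461%), with the D2 minus B6 difference larger in Exc-Cdh12 for 39 (0.209%) and smaller for 47 (0.252%). Without the library block 20 passed, and with DESeq2 11 passed. Among the 82 that were tested in both, 58 had opposite signs in Exc-Cdh12 and in the other types. They were called for a difference between these 2 fold changes, which favours opposite signs, and the share over all transcripts was not taken. For some the fold change in the other types was near 0, such as 0.035 for Htr2c and 0.046 for Fez2. The count was 218 without B6 library 3, and 20 without either D2 library. The sum of the other types also depends on how many nuclei of each type a library held; against Exc-Gpc6 alone, 28 transcripts passed.

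Of the 10 transcripts named by size of the interaction, Ptpro and Olfm3 passed by both tools. Ptpro, a receptor tyrosine phosphatase, was at 3.83 and 13.8 CPM in B6 and 50.5 and 53.3 CPM in D2 in Exc-Cdh12, and at 54.2, 61.1, 71.1 and 79.3 CPM in the other types in the same order (interaction 1.95 ± 0.34, adjusted p = 1.72e-05). Olfm3, a secreted olfactomedin that associates with AMPA receptors, was at 57.5 and 28.6 CPM in B6 and 12.6 and 2.67 CPM in D2, against 78.3, 77.4, 116 and 104 CPM in the other types (interaction -2.66 ± 0.35, adjusted p = 3.49e-10). Ptpro was thus lowest in the B6 libraries of Exc-Cdh12, and it shares a strand with Gm44258, while Olfm3 fell in D2 in Exc-Cdh12 and was higher in D2 in the other types. The other 8 (Bod1, Atp10b, St8sia2, Ccdc171, Col5a2, Hpse2, Gm16268 and Prkd3) averaged under 20 CPM in both strains, and each failed at least 3 of its 7 or 8 alternative fits.

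The 9 further transcripts called by both tools are named after their values were seen. Unc5d was at 2152 and 1351 CPM in B6 and 1039 and 1263 CPM in D2 in Exc-Cdh12, and at 274, 319, 457 and 455 CPM in the other types (interaction -1.19 ± 0.15, adjusted p = 2.95e-11). Pde11a, a phosphodiesterase of cyclic nucleotides, was at 59.4 and 91.4 CPM in B6 and 22.9 and 38.7 CPM in D2, and at 103, 102, 133 and 142 CPM in the other types (interaction -1.86 ± 0.25, adjusted p = 2.11e-10). Unc13c, a priming factor of synaptic vesicles, and Tmtc2 had interactions of -1.73 ± 0.28 and -1.79 ± 0.28. Maml2, a co-activator of Notch, was at 19.2 and 15.7 CPM in B6 and 31.6 and 36.0 CPM in D2, and fell in the other types from 385 and 358 CPM to 218 and 221 CPM (interaction 1.72 ± 0.32, adjusted p = 8.08e-05). Trabd2b, which cleaves Wnt proteins, had an interaction of 1.76 ± 0.33 and passed all 8 alternative fits. Stab2, Schip1 and 8030451O07Rik made up the rest. Unc5d, Unc13c, Tmtc2, Maml2 and Schip1 share a strand with other genes.

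Several genes of the lists above were among the 86 called by edgeR but not by DESeq2. Htr1f and Kcnk2, higher in D2 in Exc-Cdh12, had differences of 0.09 and -0.12 in the other types (interactions of 0.92 and 1.03, adjusted p = 0.0304 and 1.53e-05). The serotonin receptor Htr2c and the muscarinic receptor Chrm3 had interactions of -0.82 (adjusted p = 0.000447) and 0.69 (adjusted p = 0.0031). Both failed the edgeR test of the strains within Exc-Cdh12 (adjusted p = 0.0528 and 0.696). Cdh7 and Sema6d had interactions of -1.18 and -0.81 (adjusted p = 0.000994 and 0.000103), and neither passed the test of the strains within Exc-Cdh12 (adjusted p = 0.262 and 0.126). The leading transcripts 9330185C12Rik and Lhfpl3 had interactions of 1.17 and 0.90 (adjusted p = 0.000348 and 1.34e-05). Within Exc-Cdh12 their log2 fold changes were 0.06 and 0.37, and neither passed the edgeR test (adjusted p = 0.959 and 0.475). In the other types summed they were -1.06 and -0.49, and 9330185C12Rik averaged 2.86 CPM over those types.

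**Figure D5:**
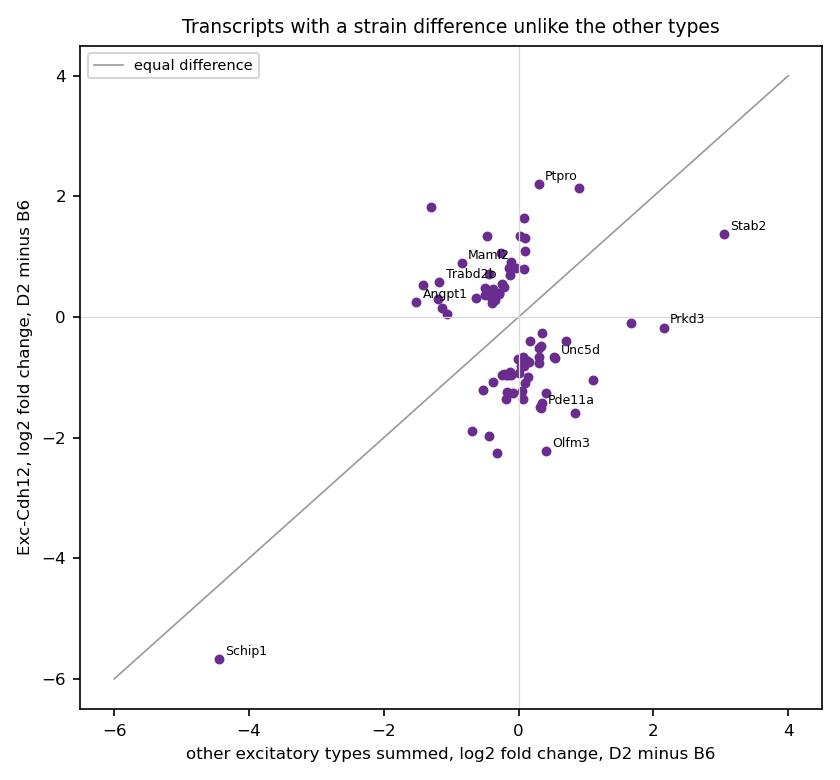
Strain difference in Exc-Cdh12 (vertical axis) against that in the other excitatory types summed (horizontal axis), both as log2 fold change of D2 minus B6, for the 82 called transcripts that were tested in both. The line marks equal differences; Ptpro, Maml2, Trabd2b and Angpt1 lie above it and Olfm3, Pde11a, Unc5d and Schip1 below it.

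In snATAC-seq, 600 of 126825 peaks differed between the strains at an adjusted p under 0.05 (0.473%), with 293 higher in D2 (0.231%) and 307 lower (0.242%), while DESeq2 called 53. Peaks with 0 counts in one strain gave 55 of the peaks higher in D2 and 92 of those lower. The Y chromosome and unplaced scaffolds held 34 of the 600 although they held 46 of the peaks tested. The 5 named peaks higher in D2 had 0 counts in both B6 libraries. One lay in an intron of Sfi1 (chr11:3159541-3159856) with 21.6 and 20.4 CPM in D2, which is 22.2-fold or more above the level of 3 counts over the B6 libraries. In all, 11 of the 16 peaks tested inside Sfi1 were higher in D2 and none lower, and the Sfi1 transcript was higher in D2 too (38.3 and 43.4 CPM in B6, 277 and 276 CPM in D2). Near-identical copies of a region can share reads, and for such peaks a difference between the strains and one between the references cannot be told apart.

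Of the other named peaks higher in D2, 2 lay on chromosome 19 (56494017 to 56495430, 7265 bp from Plekhs1, and 56510394 to 56511855, 17312 bp from Dclre1a), 1 at the pseudogene Gm12895 and 1 on the Y chromosome. The peak near Plekhs1 had 30.2 and 27.9 CPM in D2, which is 30.6-fold or more above that level. Of the 5 named peaks lower in D2, 3 lay on unplaced scaffolds and 2 on chromosome 6. One of these (3200811 to 3201594, intergenic) was at 32.1 and 31.5 CPM in B6 with 0 counts in D2, at least 45.5-fold lower there, and the other (47747931 to 47748564, 47577 bp from Pdia4) at 15.5 and 23.0 CPM, at least 30.2-fold lower. All 10 were also called by DESeq2.

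A called peak within 2 kb of the gene was found for 9 of 99 called transcripts higher in D2 (9.09%) and for 13 of 214 lower (6.07%), against 153 of all 9838 tested transcripts with an annotation (1.56%). The peak was higher in D2 for 6 of the 9 and lower in D2 for 9 of the 13. Of the 20 transcripts named by their strain difference, Sfi1 had called peaks; none of the 85 peaks tested at Schip1, the 6 at Rnf121 or the 12 at Ptpro was called. The median number of peaks tested per transcript was 3, 5 and 4 in these groups.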

How the data were processed

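Reads were mapped by the authors, those of snRNA-seq with Cell Ranger 6.0.2 including introns and those of snATAC-seq with Cell Ranger ATAC 2.0.0, to mm10 for B6 and to mm10 with D2 bases substituted for D2. They merged MACS peaks of the samples, removed doublets with DoubletFinder, assigned types with Seurat 4.0.5 and deposited raw counts summed over the nuclei of a type in each library, with the number (count) of nuclei. The 16 methylation samples, 16 snRNA-seq columns (inhibitory and Cajal-Retzius types) and 28 snATAC-seq columns were not used. The tables number libraries 2 and 3 and the labels 1 and 2, so columns are known by strain and not by sample. Each replicate was 1 tube of tissue from about 2 animals, so p-values measure the spread between such pools.

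Symbols shared by the strains had at least 10 counts in each over the columns used, not over all types as planned; 0.779% to 3.58% of the counts were in other symbols. Tests used edgeR 4.0.16 in R 4.3.3 (TMM, quasi-likelihood F, Benjamini-Hochberg), with filterByExpr for transcripts and 10 counts for peaks, and DESeq2 1.42.0 as an alternative. edgeR's common dispersion gave coefficients of variation of 0.111 (transcripts) and 0.0975 (peaks). SE is the fold change divided by the root of F. In simulated counts over 9940 transcripts the strain test recovered 62% of 2-fold and 98% of 4-fold changes with 2.44% false calls; over 126825 peaks it recovered 17% and 76%, with 4.12% false. For the interaction, simulated over 9940 transcripts, it was 65% and 99%, with 3.53% false. In each simulation, changes were placed only in transcripts at 20 CPM or more or peaks at 5 CPM or more. Every feature was given the common dispersion. Recovery of weaker features, and a spread that differs between features, were therefore not simulated.

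The members, lists and tests were chosen with earlier results of these data known. Named were the 15 leading and 10 lowest transcripts (at least 20 CPM in Exc-Cdh12, or in the others, and beyond every other excitatory type in each library, by log2 ratio with 1 CPM added), the 10 largest strain differences each way at 20 CPM with no overlap of libraries, the 5 largest interactions and peak differences each way (peaks at 5 CPM or more), the 5 leading peaks, and list members that passed or define a region. Gene positions came from GENCODE vM21 (32709 of 33902 symbols had 1 entry) and sequences from GRCm38.p6 of RefSeq. Same-numbered libraries of the strains did not deviate together (correlation -0.11 over 7125 symbols and -0.039 over 44311 peaks), so the numbers do not pair them; in the interaction the block is the library itself. Alternatives were other filters, RLE scaling, symbol sets, blocks and leaving out each library. Python 3.11.15 was used. The result of 1 marker gene is not reported here.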

Additional observations from a re-analysis of the deposited data

Results flagged for a closer look

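Of the 86 transcripts whose strain difference in Exc-Cdh12 differed from that in the other excitatory types summed (edgeR interaction test), the 5 with the largest difference in each direction are listed here for that reason. With the D2 minus B6 difference larger in Exc-Cdh12 they were Bod1 (adjusted p = 0.0393), Atp10b (0.0066), St8sia2 (0.00361), Ptpro (1.72e-05) and Ccdc171 (0.00361). With it smaller they were Col5a2 (0.0139), Olfm3 (3.49e-10), Hpse2 (0.0139), Gm16268 (0.0293) and Prkd3 (0.00428). Ptpro and Olfm3 were also called by DESeq2 and passed 7 of their 8 alternative fits. Bod1 had 0 counts in both B6 libraries of Exc-Cdh12 and 20 counts in D2, at least 5.31-fold higher there against 3 counts, and it passed 1 of 7. Prkd3 was at 11.5 and 16.6 CPM in B6 and 14.2 and 13.3 CPM in D2, while the other types went from 2.81 and 3.69 CPM to 14.1 and 16.6 CPM.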

How the results depend on the processing

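Of the strain calls in transcripts (322), 116 were called by DESeq2, 579 with a filter of 1 count, 867 over all symbols (517 higher and 350 lower in D2, which turns the balance) and 131 without same-strand overlaps. Leaving out 1 library gave 233 to 731 (731 without B6 library 2, 595 without B6 library 3). The interaction (86) gave 11 with DESeq2, 28 against Exc-Gpc6 alone, 20 with no replicate block (no library block) and 20 to 218 with 1 library left out. Peaks (600) gave 53 with DESeq2, 350 at 1 count, 240 at 50 counts and 144 to 600 with 1 library left out (144 without B6 library 3). The leading transcripts (178) were 114 with TMM scaling and 258 to 308 with 1 library left out, of which 11 to 14 of the top 15 were shared. The share of nuclei in snATAC-seq, D2 minus B6 (0.366 percentage points), was -0.394 to 1.13 with 1 library left out, lower in D2 without B6 library 2, and in snRNA-seq (0.844) 0.530 to 1.16. The library number as a replicate block gave 378 transcripts and 401 peaks, and the numbers crossed, chosen after seeing the data, 361 transcripts. Of the named values, all 20 transcripts and 10 peaks of the strain tests passed every alternative in which they were tested. The fit without same-strand overlaps left out 9 of the 10 transcripts lower in D2 and 3 of the 10 higher, and Atp5o, which had no annotation. It therefore says nothing of these transcripts. The 10 interactions lost the call in 42 of 73 fits. The causes of these changes were not tested. Where a library is left out, its strain has 1 library that is assumed to vary like the other strain's. With as few as 76 nuclei in a library, weak transcripts rest on a few counts.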
